A study of Mus musculus with 9 samples.

Results

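The genes described here mark the cells that line and wrap brain vessels, measured in the striatum of mice given saline, methamphetamine (METH) or MPTP. They are 10 genes: Cldn5, Pecam1, Cd34, Flt1, Kdr, Tek and Tie1 of endothelial cells, the transcription factor gene Klf2, and Acta2 and Pdgfrb of the vessel wall. Every probe set whose single annotated symbol was one of these was taken, which gave 14 of the 22690 probe sets on the array (10 of 12393 named genes). Each probe set combines several short DNA probes for a transcript into 1 signal, given in linear intensity units. Of the 14, 11 probe sets of 9 genes were bright enough to be tested, with a mean log2 signal at or above the 40th percentile of all probe sets. Tie1 and the dimmer probe sets of Acta2 and Pdgfrb were not.

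All mice were male C57BL/6J animals aged 56 days, and left and right striatum were taken. The 3 groups had 3 biological replicates each, with 1 array per mouse: saline-injected controls, METH-injected mice and MPTP-injected mice. METH drives dopamine out of nerve terminals, and glia turn MPTP into a poison that dopamine neurons take up. The sources used here give no dose, schedule or interval before dissection. The tissue was whole striatum, so in every comparison fewer vascular cells and less RNA per cell cannot be told apart. The comparisons set each toxin group against saline, and METH against MPTP. The p-values measure the spread between these arrays.

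Brain endothelial cells are sealed to each other by tight junctions and form the blood-brain barrier. They sense vascular endothelial growth factors through the receptor kinases Flt1 and Kdr, and angiopoietins through Tek, with Tie1 as its partner. Blood flow over the cells induces the transcription factor Klf2, which holds endothelium in a quiet, anticoagulant state. Pericytes, which carry the receptor Pdgfrb, lie against the endothelium, and smooth muscle cells, rich in the actin Acta2, surround arterioles.

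Promoter sequences are printed for Klf2, Acta2 and Cd34, because these were the genes whose arrays did not overlap between a toxin group and control. RefSeq (GRCm38.p6) held promoters for 8 of the 10 genes. Each window is the 250 bases before the annotated start, 5′ to 3′ on the gene's strand. Motifs were searched on both strands, and the first base of a match is given as its distance before the start. Capitals mark a MEF2 box and the letters TATAA in Klf2, CArG boxes with 1 core letter changed in Acta2, and the ETS core in Cd34.
Klf2, chr8:72318812-72319061, plus strand: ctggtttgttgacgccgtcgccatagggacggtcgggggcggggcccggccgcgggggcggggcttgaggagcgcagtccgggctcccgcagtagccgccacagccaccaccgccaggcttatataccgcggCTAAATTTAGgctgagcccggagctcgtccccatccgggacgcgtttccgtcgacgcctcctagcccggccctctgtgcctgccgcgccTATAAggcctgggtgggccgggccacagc
Acta2, chr19:34255374-34255623, minus strand: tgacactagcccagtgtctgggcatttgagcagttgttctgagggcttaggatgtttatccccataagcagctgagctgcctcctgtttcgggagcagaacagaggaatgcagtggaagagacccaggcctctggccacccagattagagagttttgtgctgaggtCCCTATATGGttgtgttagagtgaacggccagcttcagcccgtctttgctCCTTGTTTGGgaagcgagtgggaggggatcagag
Cd34, chr1:194938571-194938820, plus strand: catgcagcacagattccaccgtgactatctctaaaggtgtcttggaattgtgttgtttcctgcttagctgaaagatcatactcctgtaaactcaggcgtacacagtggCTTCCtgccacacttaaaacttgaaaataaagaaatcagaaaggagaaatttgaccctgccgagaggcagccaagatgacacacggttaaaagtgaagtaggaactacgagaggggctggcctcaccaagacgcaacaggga

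The MEF2 box, a site for myocyte enhancer factors, began 118 bases before the Klf2 start and was found in 0.508% of all 32851 promoter windows of this length. TATAA began 29 bases before the Klf2 start, and also lay on the other strand from 131 bases before it. It was found in 22.8% of all windows. Serum response factor binds CArG boxes in smooth muscle genes. The strict CArG box, in 1.47% of windows, was not found in the Acta2 window. The CArG box with 1 core letter changed, also in the Kdr window, occurred there at 84 and 34 bases before the start, the nearer one sharing a base with an ETS core, and 7.24% of all windows held at least 1. The ETS core GGAAG, read by a factor family with endothelial members, was found in 64.1% of windows, and the KLF site CACCC in 52.0%. Cd34 held 1 ETS core, Tie1 6, Flt1 3, Acta2 2 and Kdr 1, while the Klf2, Cldn5 and Tek windows held 0. Among these genes TATAAA, in 12.4% of all windows, was found only in Flt1, 31 bases before its start. The MEF2 box, TATAA and the changed CArG box were added after the sequences had been read. A match describes letters and is not a measured binding site.

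The arrays were close to each other, with Spearman correlations of 0.97 to 0.985 over all probe sets. METH 2 had the highest median signal, 1233 against 1111 to 1178 elsewhere. Spiny neuron genes marked the tissue as striatum, with Penk at 47500 to 59110 and Ppp1r1b at 27710 to 35820. Some endothelial and pericyte markers were bright, among them the transporter gene Slco1a4 at 4722 to 5832 and the pericyte gene Rgs5 at 9347 to 12740. Others were too dim to be tested. These were Tie1 and the pericyte and smooth muscle genes Kcnj8 (187 to 1023), Abcc9 (340 to 512) and Myh11 (203 to 479). METH 2 also had the narrowest spread of signals. Over all probe sets, 2 passed the test in METH against control and 2 in MPTP against control, in both cases those of the astrocyte gene Gfap, and 0 passed in METH against MPTP. The METH and MPTP comparisons share their control arrays, so their values are given side by side and are not independent.

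**Figure D1:**
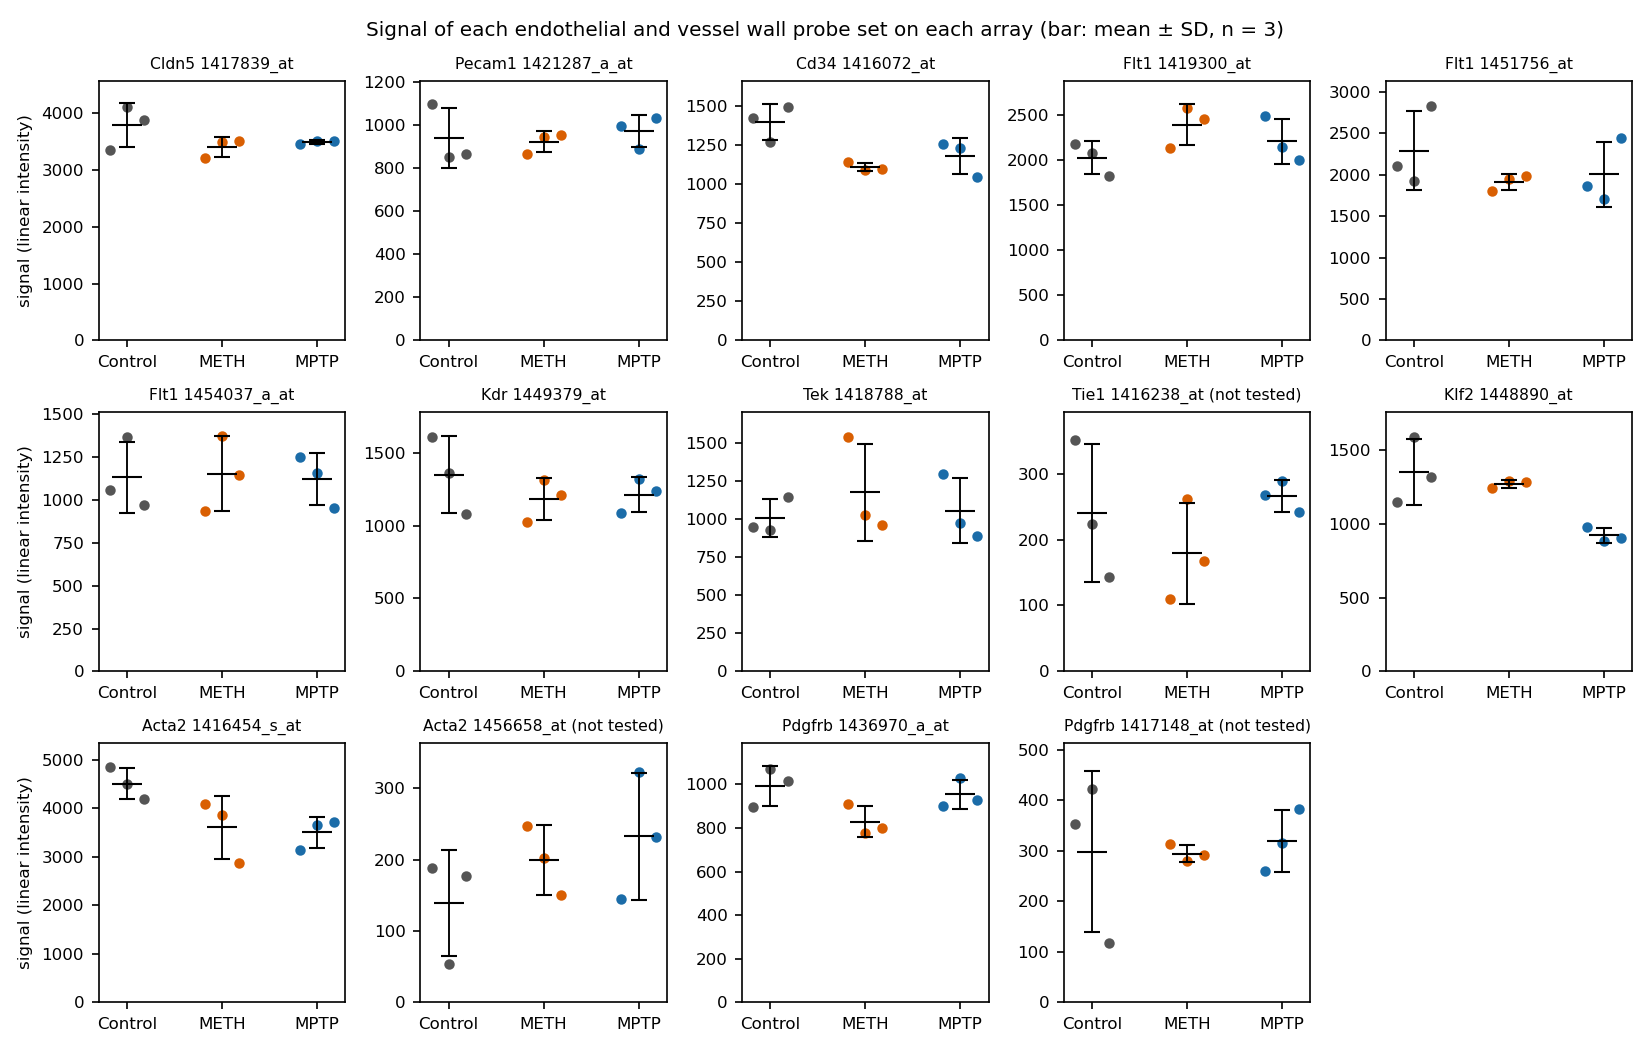
Signal (linear intensity, axis from 0) of each of the 14 probe sets on each of the 9 arrays, with the mean and SD of each group of 3. The MPTP arrays of Klf2 (886 to 980) lie below all other arrays, and for Cd34 and Acta2 (1416454_s_at) all toxin arrays lie below all control arrays.

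None of the 11 vascular probe sets passed the test in limma in any comparison (0 of 11 in METH against control, MPTP against control, and METH against MPTP, and 0 of 11 in a moderated F test of any difference). Of all probe sets tested, 0.0147% passed in METH against control, 0.0147% in MPTP against control, 0% in METH against MPTP and 0.0147% in the F test. At an unadjusted p under 0.05, 3 of the 11 were lower after METH (Cd34, Acta2 and Pdgfrb) against 3% of all probe sets, and 0 were higher against 5.77%. After MPTP 3 of the 11 were lower (Klf2, Cd34 and Acta2) against 1.82% of all probe sets, and 0 were higher against 3.7%. Between METH and MPTP, 1 was higher after METH (Klf2) against 1.74%, and 0 were lower against 1.06%. In the F test 2 of the 11, Cd34 and Klf2, had an unadjusted p under 0.05 against 5.76% of all. The count for METH was 1 without control 2 and 1 without METH 3, Cd34 in both cases, and the count for MPTP was 1, Klf2, without control 1. The count for METH was also 1 with no filter or with only the compared groups (Cd34 in both), and with a filter at the 60th percentile, which kept 4 members, each count was 1, Acta2.

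Arrays of METH and control did not overlap for 2 of the 11, Cd34 and Acta2, both lower, where 6.73% of all probe sets lay wholly lower, and 0 lay wholly higher against 6.96%. Arrays of MPTP and control did not overlap for 3, Klf2, Cd34 and Acta2, again all lower, where 4.92% of all did, and 0 lay wholly higher against 6.21%. Arrays of METH lay wholly above those of MPTP for 1, Klf2, where 3.7% of all did, and wholly below for 0 against 3.55%. The median log2 difference of the 11 was -0.15 after METH and -0.11 after MPTP, with 8 of 11 negative in each. Over all probe sets the medians were 0.012 and 0.008, and 47.1% and 47.7% were negative. The METH median was -0.08 without control 2, without control 3 or without METH 1, and the MPTP median was -0.05 without control 2. METH minus MPTP had a median of -0.04 with 6 of 11 negative, against -0.001 and 50.3% over all.

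**Figure D2:**
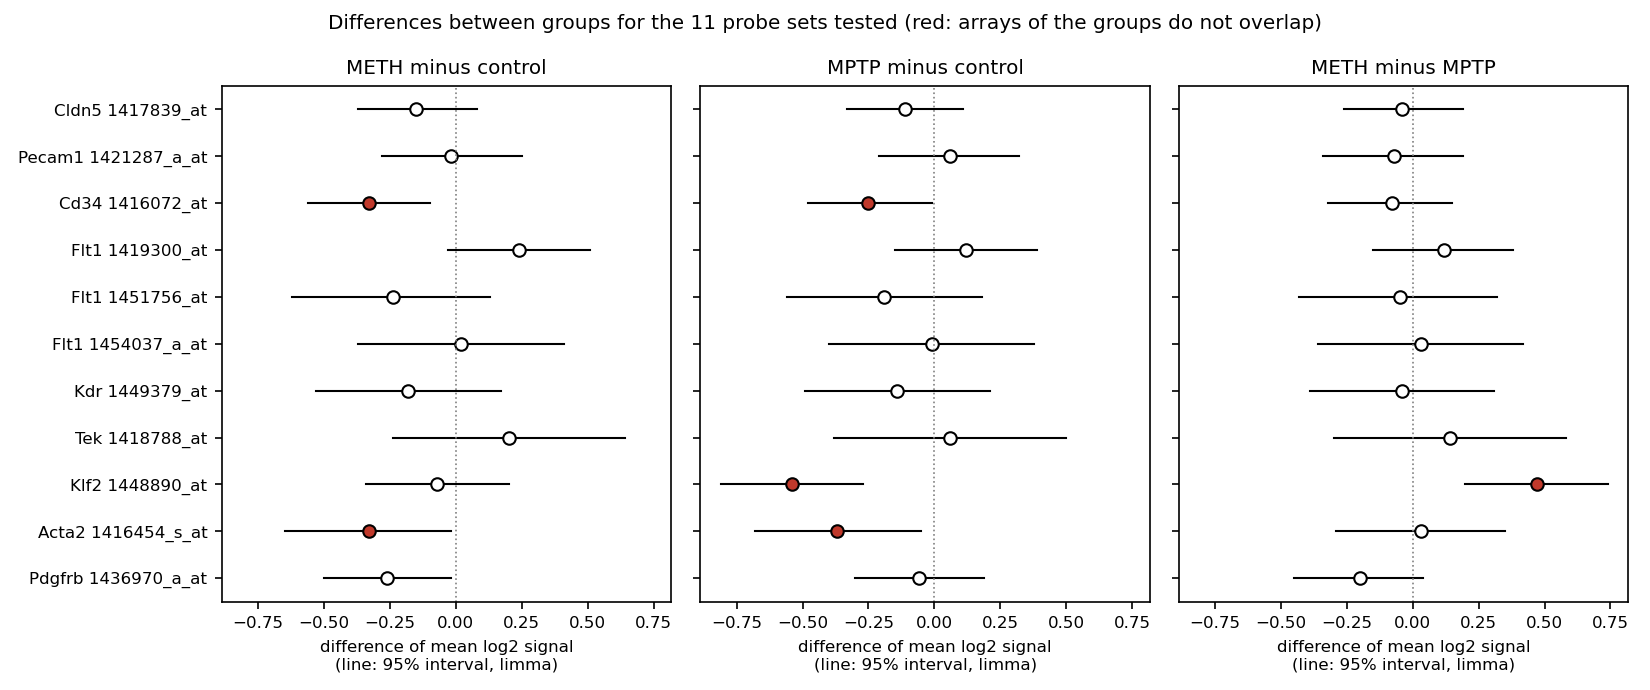
Difference of mean log2 signal (point) with its 95% interval from limma (line) for the 11 probe sets tested, in 3 comparisons. Red points mark groups whose arrays do not overlap: Cd34 and Acta2 after METH, Klf2, Cd34 and Acta2 after MPTP, and Klf2 between the toxins at 0.47.

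Klf2, the flow-induced transcription factor gene, had the largest difference from control of any vascular probe set tested. Its signal was 1146, 1590 and 1318 in control 1, 2 and 3 (the order of replicates used throughout), then 1243, 1293 and 1286 for METH, and 980, 886 and 901 for MPTP, in replicate order. All 3 MPTP arrays were lower than the other 6, while the METH arrays lay inside the control range. The mean was 1351 ± 224 in control, 1274 ± 26.9 in METH and 922 ± 50.6 in MPTP (SD, n = 3 each), which orders the groups control, METH, MPTP and only at the last step did arrays not overlap.

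The log2 difference of Klf2 in MPTP against control was -0.54 ± 0.12 (SE, 95% interval -0.81 to -0.27, 1.45-fold lower) with adjusted p = 0.719. It ranked 21 by p among 13584 probe sets. The value ran from -0.65 to -0.42 over the alternative settings, with adjusted p from 0.31 to 0.999. METH minus MPTP was 0.47 ± 0.12 (0.2 to 0.74) with adjusted p = 1, rank 14. METH against control was -0.07 ± 0.12 (-0.34 to 0.2). Klf2 therefore did not pass the test in any comparison.

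Immediate early genes, which cells transcribe quickly after stimulation, were read beside Klf2. Of 14 such genes 13 were tested, and 9 of the 13 were lower after MPTP, with a median of -0.22, while 7 of 13 were higher after METH, with a median of 0.00. The summed signal of the 14 was 68140 to 82260 in MPTP, 79370 to 104900 in control and 82480 to 98130 in METH. By this sum, in which Egr1 is the brightest gene, MPTP 1 lay just below METH 2 and the MPTP arrays overlapped control. By the mean log2 deviation of the list, in which each gene counts alike, MPTP (-0.238 to -0.02) overlapped METH (-0.059 to 0.139). The brightest members, Egr1 and Nr4a1, had -0.18 ± 0.14 and -0.33 ± 0.18 after MPTP. Dusp1 and Fos, named after their values were seen, had -0.56 ± 0.11 and -0.51 ± 0.13 after MPTP. After METH they had -0.40 ± 0.11 and -0.23 ± 0.13. The other way, 4 of the 13 were higher after MPTP, with Zfp36 highest at 0.40 ± 0.20. None of the list passed the test, and the part of these genes in the Klf2 difference was not tested.

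Genes known to respond to flow or to Klf2 were read as a further list. Of 12 on the array 5 were tested, and 3 of the 5 were higher after MPTP, with a median of 0.07. None passed the test. Nfe2l2, the antioxidant response factor, had 0.24 ± 0.11 after MPTP and 0.16 ± 0.11 after METH. Slc9a3r2, a scaffold protein gene, had -0.11 ± 0.15 and -0.09 ± 0.15. The summed signal of the 12 overlapped between all groups, at 9492 to 9931 on control arrays, 9551 to 10140 on METH arrays and 9088 to 10050 on MPTP arrays.

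Cd34, a surface sialomucin of endothelial cells that blood stem cells also carry, was lower on every toxin array. Its signal was 1428, 1275 and 1497 in control 1, 2 and 3. It was 1141, 1091 and 1101 for METH, and 1261, 1232 and 1049 for MPTP, in the same order. The METH arrays lay close together, and MPTP 1 lay just below the lowest control. Group means were 1400 ± 114 in control, 1111 ± 26.3 in METH and 1181 ± 115 in MPTP (SD, n = 3 each), and the METH and MPTP arrays overlapped.

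Cd34 had a log2 difference of -0.33 ± 0.10 after METH (SE, -0.56 to -0.1, 1.26-fold lower, adjusted p = 0.505) and -0.25 ± 0.10 after MPTP (-0.48 to -0.01, 1.19-fold lower, adjusted p = 0.875). The METH value ran from -0.40 to -0.28 over the alternatives, with adjusted p from 0.274 to 0.755. The MPTP value ran from -0.31 to -0.16, with adjusted p from 0.561 to 0.999, and was -0.16 without MPTP 3. METH minus MPTP was -0.08 ± 0.10 (-0.32 to 0.15).

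Cldn5, the main tight junction protein gene of the blood-brain barrier, was the brightest endothelial probe set, at the 77.4th percentile of all probe sets. Its signal was 3356, 4108 and 3880 in control 1, 2 and 3, then 3207, 3496 and 3512 in METH, and 3446, 3513 and 3501 in MPTP. The toxin arrays sat between control 1 and the other control arrays, except METH 1, which was lowest. The MPTP arrays differed by little, with an SD of 35.7 around 3487. The log2 differences were -0.15 ± 0.10 after METH (-0.37 to 0.08, adjusted p = 0.703) and -0.11 ± 0.10 after MPTP (-0.33 to 0.11, adjusted p = 0.934). They were -0.23 and -0.20 without control 1, and -0.08 and -0.05 without control 2.

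Pecam1, an adhesion protein at endothelial contacts, had signals of 1098, 853 and 866 in control, 868, 946 and 954 in METH, and 994, 887 and 1033 in MPTP. All groups overlapped, and control 1 was the highest array. The log2 differences were -0.02 ± 0.12 after METH (-0.28 to 0.25) and 0.06 ± 0.12 after MPTP (-0.21 to 0.32). The order of the means, MPTP, control, METH, did not exceed the spread at either step.

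Flt1, a vascular endothelial growth factor receptor that also acts as a decoy, was read by 3 probe sets, and these did not move alike. Probe set 1419300_at had 2173, 2074 and 1821 in control, 2133, 2574 and 2451 in METH, and 2479, 2143 and 1993 in MPTP. Probe set 1451756_at had 2109, 1927 and 2833 in control, 1800, 1944 and 1986 in METH, and 1864, 1702 and 2443 in MPTP. Probe set 1454037_a_at had 1060, 1366 and 971 in control, 936, 1376 and 1148 in METH, and 1250, 1160 and 954 in MPTP. The first was lowest and the second highest in control 3, and groups overlapped in all 3 probe sets.

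After METH the Flt1 probe sets had log2 differences of 0.24 ± 0.12 (-0.03 to 0.51, adjusted p = 0.617), -0.24 ± 0.17 (-0.62 to 0.13, adjusted p = 0.707) and 0.02 ± 0.18 (-0.37 to 0.41, adjusted p = 0.975), in the order above. After MPTP they had 0.12 ± 0.12, -0.19 ± 0.17 and -0.01 ± 0.18, with adjusted p of 0.942, 0.933 and 0.998. Without control 3, 1451756_at had -0.08 after METH and -0.03 after MPTP, and over all single arrays left out it ran from -0.36 to -0.08 and from -0.34 to -0.03. Likewise 1419300_at ran from 0.16 to 0.32 after METH and from 0.04 (without MPTP 1) to 0.19 after MPTP, and 1454037_a_at took both signs after each toxin. Across the 9 arrays the first correlated at r = -0.62 with the second and at 0.63 with the third, as a description. The sign for Flt1 thus depended on the probe set, and which transcripts each probe set reads was not tested.

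Kdr, the main signalling receptor for vascular endothelial growth factor, had signals of 1607, 1363 and 1079 in control, 1024, 1311 and 1211 in METH, and 1084, 1318 and 1235 in MPTP. The control arrays spanned nearly the whole range of the other 6. The log2 differences were -0.18 ± 0.16 after METH (-0.53 to 0.17) and -0.14 ± 0.16 after MPTP (-0.49 to 0.21), with adjusted p of 0.756 and 0.943. Without control 1 they were -0.04 and 0.00, without control 3 they were -0.33 and -0.29, and the METH value was -0.08 without METH 1 and the MPTP value -0.06 without MPTP 1.

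Tek, the angiopoietin receptor, had 948, 930 and 1150 in control, 1543, 1028 and 963 in METH, and 1301, 979 and 894 in MPTP. METH 1 and MPTP 1 were the highest arrays, and the rest overlapped. The log2 differences were 0.20 ± 0.20 after METH (-0.24 to 0.64) and 0.06 ± 0.20 after MPTP (-0.38 to 0.5), and without METH 1 the METH value was -0.01. Tek and Kdr ran opposite to each other over the 9 arrays, at r = -0.76, and the arrays with the lowest Kdr signals, METH 1, control 3 and MPTP 1, were the 3 highest for Tek.

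Tie1, the partner receptor of Tek, was dim, at the 19.1th percentile, and was not tested. Its signal was 351, 224 and 144 in control, 110, 261 and 167 in METH, and 267, 289 and 241 in MPTP. The within-group SD was 0.52 log2 units, against 0.10 for Cldn5, and all groups overlapped.

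**Figure D3:**
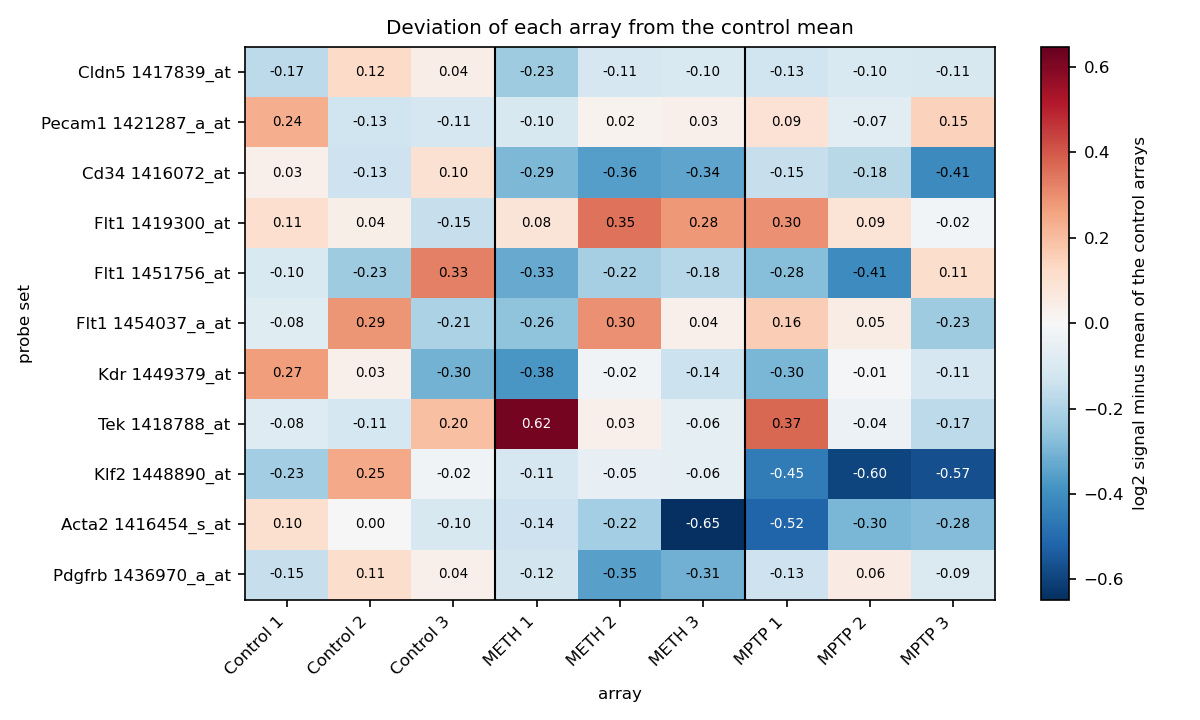
Deviation of each array's log2 signal from the control mean (colour and printed value) for the 11 probe sets tested. Klf2 is negative on all 3 MPTP arrays (-0.45 to -0.6), Cd34 is lower on all 6 toxin arrays than on any control array, and Flt1 takes opposite signs in its first and second probe sets on METH arrays.

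Acta2, the smooth muscle actin gene, was the brightest vascular probe set in 1416454_s_at, at the 79.0th percentile. Its signal was 4837, 4498 and 4182 in control 1, 2 and 3, then 4092, 3858 and 2872 in METH, and 3140, 3661 and 3705 in MPTP. All toxin arrays were lower than all control arrays, METH 1 by little and METH 3 by the most. Means were 4506 ± 328 in control, 3607 ± 648 in METH and 3502 ± 315 in MPTP (SD, n = 3 each), and METH and MPTP overlapped.

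The log2 difference of Acta2 was -0.33 ± 0.14 after METH (SE, -0.65 to -0.02, 1.26-fold lower, adjusted p = 0.544) and -0.37 ± 0.14 after MPTP (-0.68 to -0.05, 1.29-fold lower, adjusted p = 0.875). The METH value was -0.18 without METH 3 and the MPTP value ran from -0.42 to -0.29 over the alternatives. The suffix of this probe set marks probes that can match near-identical transcripts, so its value is uncertain for Acta2 alone. The other Acta2 probe set, 1456658_at, was dim and not tested, with 188, 53.6 and 177 in control, 248, 202 and 150 in METH, and 144, 322 and 231 in MPTP. Its group means differed in the opposite direction, by 0.69 and 0.87 log2 units, with a within-group SD of 0.71.

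Pdgfrb, the pericyte receptor for platelet-derived growth factor B, had signals of 894, 1070 and 1014 in control, 911, 776 and 799 in METH, and 902, 1028 and 929 in MPTP (probe set 1436970_a_at). METH 2 and METH 3 were the lowest arrays, and METH 1 lay above control 1. The log2 difference was -0.26 ± 0.11 after METH (-0.5 to -0.02, 1.2-fold lower, adjusted p = 0.541) and -0.06 ± 0.11 after MPTP (-0.3 to 0.19, adjusted p = 0.971). METH minus MPTP was -0.20 ± 0.11 (-0.45 to 0.04). The dim probe set 1417148_at, not tested, had 353, 423 and 118 in control, 313, 279 and 291 in METH, and 261, 315 and 382 in MPTP, and showed no separation.

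Ratios of 3' to 5' control signal, a gauge of RNA quality, are given beside Pdgfrb, lowest in METH 2 and METH 3, and Acta2, lowest in METH 3. The ratio of 3' to 5' control signal for pyruvate carboxylase was 1.72 in METH 2 and 1.42 in METH 3, against 2.16 to 3.38 on the other 7 arrays. For Gapdh it was 0.732 in METH 2, and METH 3, at 0.811, lay inside the 0.785 to 0.858 of the other arrays. The transferrin receptor ratio was 2.2 to 2.81 on control arrays, 2.25 to 2.94 on METH arrays and 2.76 to 3.73 on MPTP arrays. The part of RNA quality in the Acta2 and Pdgfrb values was not tested.

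**Figure D4:**
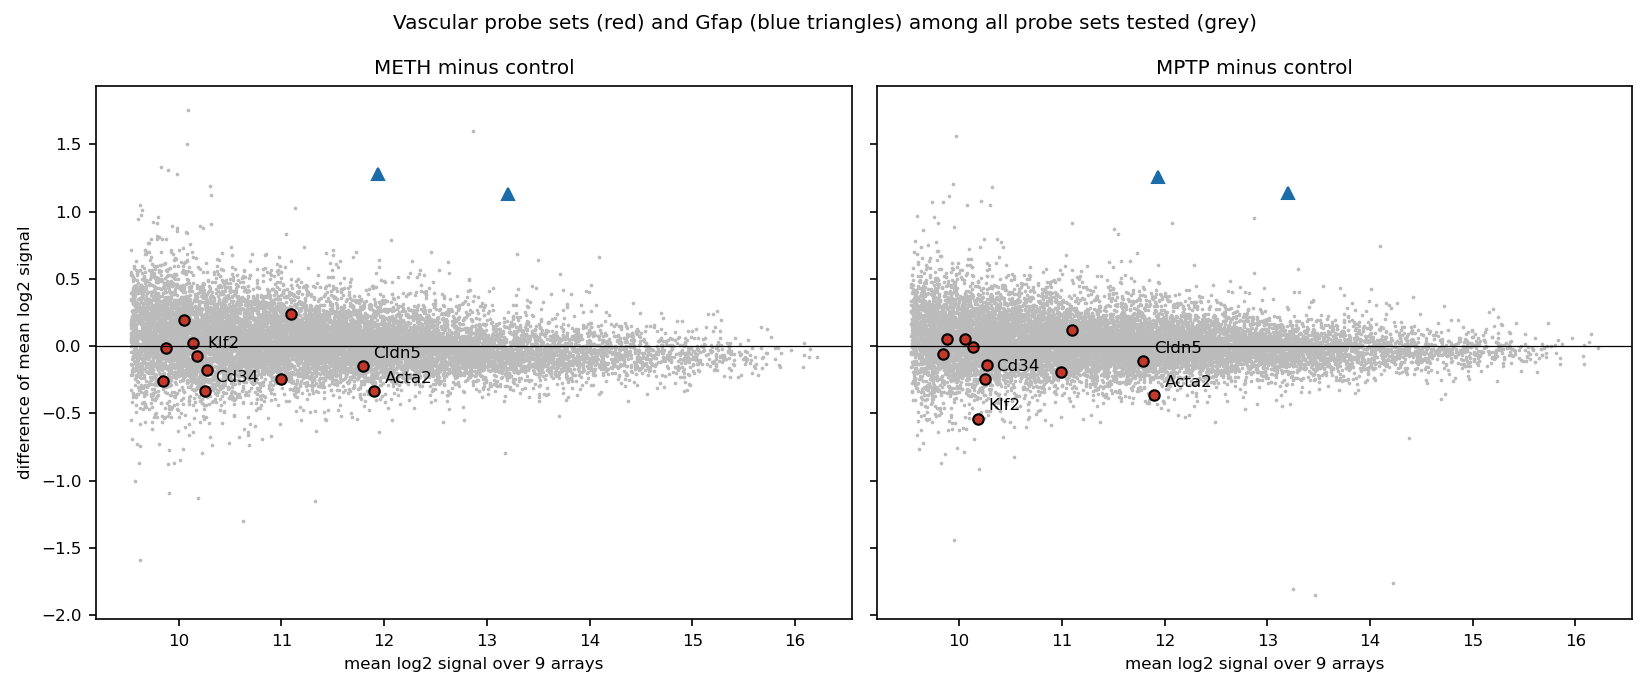
Difference of mean log2 signal against mean log2 signal over 9 arrays for all 13584 probe sets tested (grey), the 11 vascular probe sets (red) and Gfap (blue triangles). Klf2 has the largest difference of the vascular points, -0.54 after MPTP. Other probe sets tested lie farther out, among them Igfbp2 at -0.62 after MPTP.

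Over the arrays the vascular probe sets showed no common pattern. Among the 55 pairs of vascular probe sets, 29 correlated positively across the 9 arrays, with a median r of 0.05 and a range of -0.76 to 0.63. The mean log2 signal of 6 endothelial genes, each by its brightest probe set, ran from 10.476 in MPTP 3 to 10.653 in control 1. It was 10.55 to 10.653 on control arrays, 10.532 to 10.574 on METH arrays and 10.476 to 10.619 on MPTP arrays, so the groups overlapped. By the rule for likeness, the probe sets most like this mean over 9 arrays, of 12498 compared, were those of Bcap31 (r = 0.98), Rpl4 (0.93), Slc6a15 (0.93), Mmadhc (0.92) and Ran (0.92). Likeness over so few arrays is a description.

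Other vascular genes were read from lists, in which no gene passed the test in either comparison with control. Ligands came first: of 13 vascular growth factors on the array 5 were tested, and 4 were higher after METH and 3 after MPTP, with medians of 0.08 and 0.01. Apln, the brightest, encodes the ligand of the apelin receptor and had 0.27 ± 0.11 and 0.28 ± 0.11, and Vegfb had 0.03 ± 0.13 and 0.01 ± 0.13. The summed signal of the 13 was 17740 to 19040 on control arrays, 19580 to 20460 on METH arrays and 19460 to 20500 on MPTP arrays. Both toxin groups thus lay above control in this sum, in which Apln is the brightest gene. Apln itself had 4965 to 5611 on control arrays, 5861 to 6805 on METH arrays and 5755 to 6849 on MPTP arrays. The sum without Apln was not taken. Pdgfb, the ligand of Pdgfrb, named here after its value was seen, had -0.10 ± 0.10 and -0.01 ± 0.10.

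Receptors and coreceptors of endothelium had medians of 0.13 after METH and 0.11 after MPTP over 13 genes, 8 and 7 of them higher. S1pr1, a sphingosine phosphate receptor, had 0.17 ± 0.09 and 0.20 ± 0.09, and Plxnd1, a semaphorin receptor, had -0.16 ± 0.15 and -0.15 ± 0.15. Junction and surface genes other than the members had medians of -0.05 and 0.03 over 10 genes. Tjp1, which anchors tight junctions, had 0.01 ± 0.14 and -0.02 ± 0.14, and Cav2, a caveolar protein gene, had -0.05 ± 0.18 and 0.12 ± 0.18.

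Transporters of the blood-brain barrier were lower for 9 of 11 after METH and 7 of 11 after MPTP, with medians of -0.07 and -0.03. Tfrc, the transferrin receptor gene, which neurons also express, had -0.31 ± 0.11 and -0.16 ± 0.11, and the thyroid hormone transporter gene Slco1c1 had -0.13 ± 0.11 and -0.21 ± 0.11. Endothelial transcription factors had medians of -0.08 and -0.05 over 12 genes. The brightest, Klf9 and Foxo1, are expressed by many cell types and had -0.14 ± 0.11 and -0.14 ± 0.14 after METH, and -0.16 ± 0.11 and -0.04 ± 0.14 after MPTP.

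Pericyte and smooth muscle genes other than the members had a median of 0.01 after each toxin over 11 genes, 5 of them lower in each. Rgs5 had -0.09 ± 0.12 and -0.11 ± 0.12, and the tropomyosin gene Tpm1 had -0.14 ± 0.16 and -0.26 ± 0.16. Among the contractile genes, named after their values were seen, Myl9 had -0.33 ± 0.16 and -0.16 ± 0.16, and Tagln had 0.12 ± 0.28 and -0.50 ± 0.28. Cald1, Mylk and Tpm2 had 0.29 ± 0.26, 0.08 ± 0.13 and 0.09 ± 0.17 after METH. After MPTP they had 0.13 ± 0.26, 0.13 ± 0.13 and 0.13 ± 0.17. The list thus went both ways. Basement membrane and fibroblast genes had medians of 0.13 and 0.10 over 10 genes. Sparc, a matrix protein gene that astrocytes and microglia also express, had 0.40 ± 0.16 and 0.34 ± 0.16, and Hspg2, which encodes perlecan, had 0.21 ± 0.16 and 0.27 ± 0.16.

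Of 13 genes of inflamed endothelium 3 were tested, with medians of -0.04 and -0.13. Ackr1, a chemokine-binding receptor, had -0.04 ± 0.13 and -0.13 ± 0.13, and the chemokine gene Cxcl12 had -0.38 ± 0.12 and -0.18 ± 0.12. The adhesion gene Vcam1, the remaining gene tested, had 0.32 ± 0.13 and 0.18 ± 0.13.

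**Figure D5:**
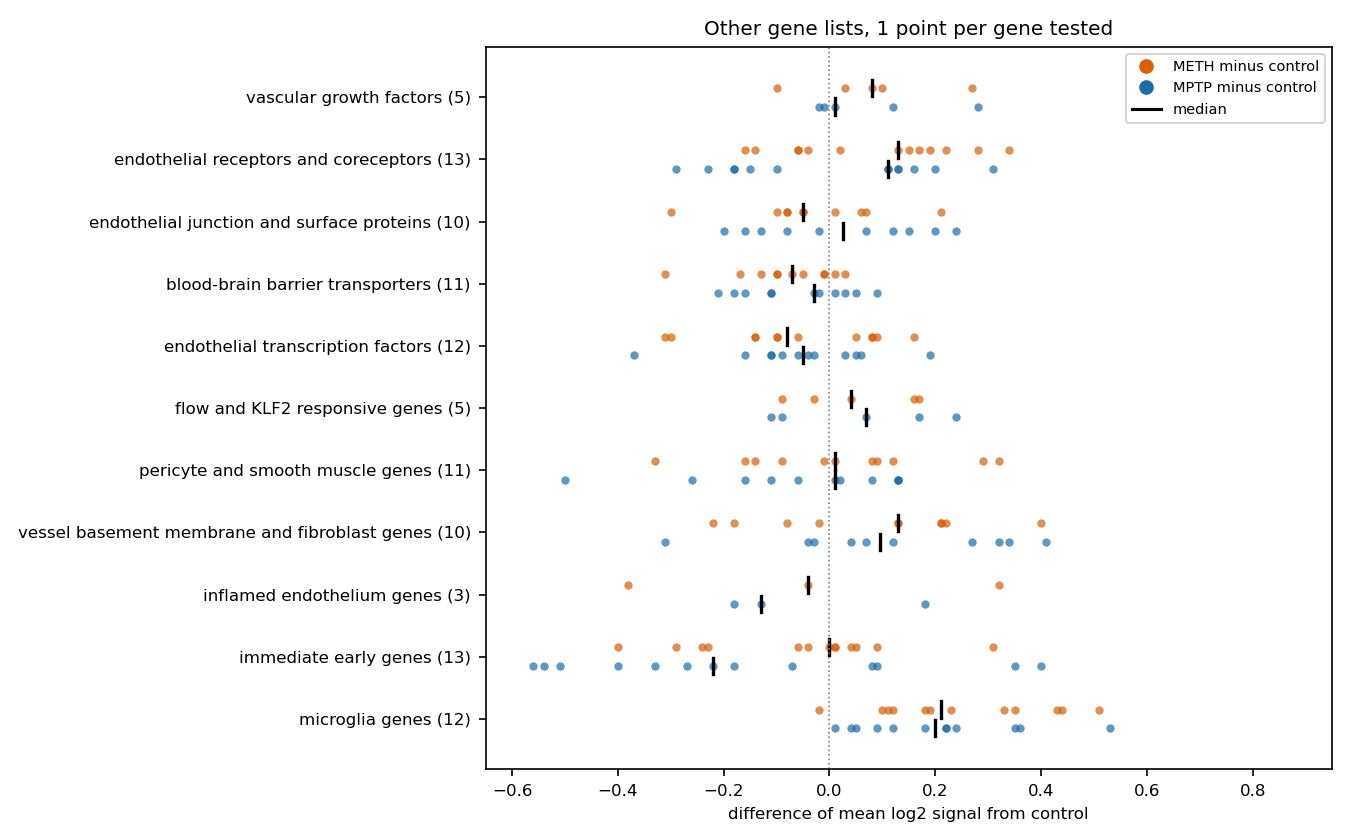
Difference of mean log2 signal from control for each gene tested (1 point per gene, number of genes in brackets), after METH (orange) and MPTP (blue), with list medians as black bars. The 10 genes described above and the choroid plexus, meningeal, blood cell, astrocyte and spiny neuron lists are not plotted. Medians of the lists plotted run from -0.22 (immediate early genes, MPTP) to 0.21 (microglia genes, METH), and those of the vascular lists among them lie between -0.13 and 0.13.

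Markers of other cells in the dissection were read on the same arrays. Microglia genes were higher for 11 of 12 after METH and 12 of 12 after MPTP, with medians of 0.21 and 0.20, and their summed signal was 55230 to 62780 on control arrays, 66790 to 69660 on METH arrays and 64480 to 68120 on MPTP arrays. The brightest, Csf1r and Ctss, had 0.10 ± 0.10 and 0.43 ± 0.11 after METH. Trem2 and Itgam of this list were too dim to be tested. Trem2 lay wholly below control after MPTP, at 328, 304 and 234 against 710, 410 and 611, and overlapped control after METH. Itgam overlapped control after each toxin. Blood cell genes summed to 6656 to 8339 on control arrays, 7242 to 9124 on METH arrays and 7007 to 9653 on MPTP arrays. Of 5 blood cell genes tested 4 were higher after METH and 5 after MPTP, with medians of 0.21 and 0.20, and none passed the test. The brightest, Ighm and Ltf, had 0.17 ± 0.17 and -0.17 ± 0.20 after METH, and 0.20 ± 0.17 and 0.10 ± 0.20 after MPTP. The haemoglobin gene Hbb-b2, named after its values were seen, had 0.69 ± 0.23 and 0.57 ± 0.23. Its arrays lay wholly above control in both groups, where 6.96% and 6.21% of all probe sets did. Other genes of the list, too dim to be tested, did not follow it. Alas2 lay wholly below control in both groups, and Hba-a1 overlapped control in both. Hba-a2 lay wholly above control after METH and overlapped it after MPTP. Astrocyte genes were higher for 8 of 9 after METH and 7 of 9 after MPTP, with medians of 0.08 and 0.17, and only Gfap passed the test. Their summed signal, Gfap included, lay wholly above control, at 89620 to 95030 in control against 96720 to 104200 in METH and 98540 to 106800 in MPTP. Gfap alone was at most 6436 on any control array and at least 10960 on every toxin array. The sum without Gfap was not taken, so a separation of the other astrocyte genes was not tested. The brightest of this list, Aldoc and Gja1, had 0.01 ± 0.09 and 0.08 ± 0.13 after METH. Meningeal genes, which share Dcn, Lum, Col1a1 and Col1a2 with the fibroblast list, summed to 27900 to 32390, 31280 to 34770 and 30190 to 31150, with medians of 0.00 and -0.01. Choroid plexus genes summed to 14060 to 70410, 10520 to 54350 and 4920 to 36500 (medians of 0.08 and -0.89 over 2 genes), a spread within groups larger than that of any vascular list. The part of these cells in the vascular values was not tested.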

How the data were processed

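Striatal RNA of 9 mice was measured on single-colour Affymetrix arrays, 1 per mouse. The deposited table holds a linear intensity for each of 22690 probe sets. The authors had scaled the arrays to one trimmed mean, 2500.6 with 2% dropped from either end, judging from the values. RMA is named, with no version, in the submitters' processing notes, but the values do not have the form RMA usually gives. The summary method of the probe sets is thus unknown. The scale is linear, genes are not centred, and single-colour arrays have no dye direction. Depth does not apply to arrays, so their number limits the precision.

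Gene names came from the platform's annotation: 20380 probe sets had 1 symbol, 691 several and 1555 none, and 64 were array controls, left out. Of the 20380, 20351 gene IDs were found in RefSeq (GRCm38.p6), and 0 symbols changed. Signals were log2 transformed as deposited, without a pseudocount. A filter at the 40th percentile of mean log2 signal (9.53) kept 13584 probe sets. limma 3.58.1 in R 4.3.3 compared the groups (lmFit with 1 mean per group, eBayes, all 9 arrays, 6 residual and 3.9 prior degrees of freedom), two-sided, with Benjamini-Hochberg adjustment over all probe sets kept. The threshold was an adjusted p of 0.05. The procedure was tested on simulated data. For 3 arrays against 3, the smallest p of an exact permutation test is 0.1, and it was not run.

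The members and gene lists were chosen with earlier results of these data known. A gene in a list was represented by its brightest probe set, and the 2 brightest genes of a list were named. Alternatives changed the normalization, the pseudocount, the filter, the choice of probe sets, the arrays in the fit, the array weights, the replicate block and the arrays left out. Deviations of same-numbered arrays from their group means correlated at -0.13 to 0.05, so no pairing by number was seen. Such values cannot show whether same-numbered arrays were handled together.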

Additional observations from a re-analysis of the deposited data

How the results depend on the processing

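Member probe sets past the test numbered 0 in every comparison under all 20 alternatives, 19 for the F test (lowest adjusted p 0.274). Of the 33 differences of single member probe sets, 20 kept their sign in all their settings, and 13 changed it at least once, none larger than 0.20 in size. Quantile normalization turned the sign of Pecam1 and Tek after MPTP and of the third Flt1 probe set after METH. Over all probe sets, the 2 passing after METH became 0 with arrays centred on their medians, without probe sets ending in _x_at or _s_at, and with the replicate block, and 1 with no filter, with each gene by its brightest probe set and with only the compared groups. The 2 after MPTP became 0 under the same changes, and also with no filter and with only the compared groups, and 1 by brightest probe set and with array weights. The 2 of the F test became 0 with centring, no filter, _x_at and _s_at left out and the block, and 1 by brightest probe set. Leaving out 1 array gave 0 to 1 after METH, 0 to 0 after MPTP and 0 to 0 in the F test. The block assumes a pairing by number that the values did not show: 0 of 9 arrays correlated best with an array of their own number.

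The median of the members after METH was -0.21 with centring, -0.11 with no filter (14 probe sets), -0.19 at the 60th percentile (4 probe sets), -0.11 without _s_at and -0.09 with array weights, and -0.18 to -0.08 without 1 array. After MPTP it was -0.15 with centring, -0.03 with no filter, -0.15 under the 60th percentile filter, -0.08 with array weights, and -0.13 to -0.05 without 1 array. METH minus MPTP gave 0.00 at the 60th percentile and -0.07 to 0.02 without 1 array. Except where fewer or more probe sets or arrays were used, the cause was not tested. The count at an unadjusted p under 0.05 and its values under the alternatives were added after seeing the data.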
